A study of Mus musculus with 24 samples.

Results

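RNA of adipocytes grown from epididymal fat was compared between aKO and Cont cultures that had received the siRNA named siNS. The members are the 6 libraries whose labels give the depot eWAT and the siRNA siNS, out of 24 libraries in the study, and every gene of the count table entered the comparison. The 3 Cont libraries came from mice with the alleles Senp2flox/flox, so the controls carry the floxed allele too. The 3 aKO libraries came from Senp2flox/flox ; Adipoq Cre mice, in which the Adipoq promoter drives the recombinase Cre. Cells of the stromal vascular fraction (SVF), the non-fat cells that are released when fat is digested, were induced to differentiate for 2 days and kept with insulin for a further 5 days, per the labels' protocols. The other 18 libraries came from inguinal fat (iWAT) or received an siRNA named siCEBPb, and they serve here only for comparison. The labels leave siNS unexplained and do not tell if replicates are animals or parallel cultures, so a p-value here reflects the spread among these libraries, which may be technical. The Adipoq promoter is active in fat cells, so SVF cells that had not differentiated would keep Senp2.

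SENP2 is a protease that removes SUMO, a small protein tag that is attached to many nuclear proteins and often lowers the activity of transcription factors. Fat cell formation runs through C/EBPβ and C/EBPδ early and through PPARγ and C/EBPα later, and several of these factors carry SUMO. Browning is the gain of heat-producing, mitochondria-rich fat cells within white fat, and its hallmarks are Ucp1, Cidea and Ppargc1a. The study asked what SENP2 and C/EBPβ do in the browning of white fat, as its title states.

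The 6 libraries held 13025727 to 15388744 gene counts each, and 14785 genes were tested in an edgeR fit that shared its estimate of the spread with 17 other libraries. Values are CPM, counts scaled to a common library total by the trimmed mean of M values (TMM), fold changes are log2 of aKO over Cont ± SE with n = 3 libraries a group, and a gene rose or fell where its adjusted p was below 0.05. The first principal component held 58% of the variance and separated the genotypes. In bulk RNA, fewer cells of a type and less RNA per cell cannot be told apart.

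Senp2 itself fell only slightly. Its 58.3, 54.2 and 53.8 CPM in Cont and 53.3, 43.9 and 46.9 CPM in aKO libraries did not overlap, at a log2 fold change of -0.21 ± 0.069 (edgeR adjusted p = 0.0241). This call ended in some fits: adjusted p was 0.124 without Cont replicate 1, 0.168 without aKO replicate 2, 0.0873 without aKO replicate 3, 0.0519 when all 24 libraries were fitted, 0.0527 with the 12 eWAT libraries and 0.0616 with the 6 compared libraries alone. With siCEBPb, the libraries labelled aKO had 56.4, 50.5 and 53.1 CPM against 51.1, 50.2 and 49.3 CPM in Cont (0.09 ± 0.069, adjusted p = 0.460), and in iWAT with siNS the difference was -0.08 ± 0.081 (adjusted p = 0.536). Counts are summed over the gene at chr16:22009484-22049269 (GRCm38), where reads from exons outside a deleted part are counted too, so this level does not check the labels. Of 23 tested genes of the SUMO pathway, 3 fell (13%) and 0 rose, where 14.1% of all tested genes fell and 11.8% rose. The share that fell was thus near that of all genes. Beside Senp2 these were Senp5, another SUMO protease (-0.23 ± 0.081), and Ranbp2, a SUMO ligase of the nuclear pore (-0.18 ± 0.059). None of the 3 was called with all 24 libraries or without aKO replicate 3, and 1 of them was called without Cont replicate 3 or without aKO replicate 2. The adjusted p of Ranbp2 was 0.101 without aKO replicate 1. Cebpb, the factor named in the study's title, had 159, 168 and 184 CPM in Cont and 142, 158 and 158 CPM in aKO libraries (-0.16 ± 0.15, adjusted p = 0.509), a difference that did not pass the test.

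Most genes that mark the depot of origin did not differ between the Cont siNS libraries labelled eWAT and those labelled iWAT. Wt1, a transcription factor of visceral fat that subcutaneous fat lacks, had 14.6, 15.2 and 16.3 CPM in eWAT Cont siNS libraries and 14.5, 14.8 and 14.3 CPM in iWAT Cont siNS libraries. The difference was 0.08 ± 0.11 on the log2 scale, with a 95% interval from -0.14 to 0.3 (edgeR adjusted p = 0.733). Tbx15, a marker of subcutaneous fat, had 70.6, 68.7 and 80.8 CPM in eWAT and 70.5, 75.4 and 75.6 CPM in iWAT Cont libraries. Of 11 visceral markers none differed between these Cont libraries, and of 15 subcutaneous markers 3 did: Hoxc9 (-0.38, eWAT over iWAT), Hoxc10 (-0.28) and Irx2 (0.34, named after its value was seen). Over all genes, 1144 differed between the Cont siNS libraries of the 2 labels, 7.74% of those tested, and 104 of them by over 2-fold. Without eWAT Cont replicate 3 this number was 588, and with all 24 libraries it was 178. The depot is therefore given below as labelled.

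**Figure D1:**
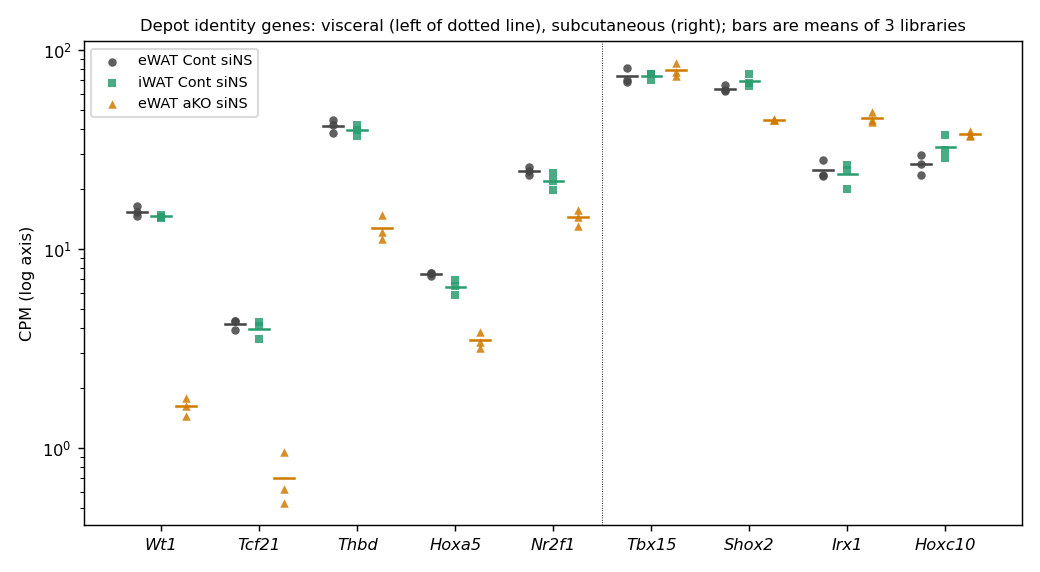
Depot identity genes in 9 libraries. The vertical log axis gives CPM for 5 visceral genes (left of the dotted line) and 4 subcutaneous genes (right), with points for single libraries and bars for means of 3. The Cont libraries labelled eWAT and iWAT lie close together for most genes shown, and Hoxc10 was called lower in eWAT (-0.28). Wt1, Tcf21, Thbd, Hoxa5 and Nr2f1 are lower in the eWAT aKO libraries.

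The genotypes differed in 3825 of 14785 genes (25.9%), of which 1745 rose (11.8%) and 2080 fell (14.1%). Counts in the gene lists below are to be read beside these shares. Most changes were small, with a median absolute log2 fold change of 0.42 among them, and 230 genes rose and 311 fell by over 2-fold. In 5836 genes (39.5%) the 3 aKO libraries lay wholly above or below the 3 Cont libraries. The median over all tested genes was -0.01.

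Clec14a, Egfl6 and Ntrk2 were among the 20 genes with the largest rises. Clec14a, a lectin-like membrane protein, had 4.61, 3.36 and 4.29 CPM in Cont and 16.4, 16.3 and 17.9 CPM in aKO libraries (2.04 ± 0.16, adjusted p = 3.56e-11). Egfl6, a secreted protein with EGF repeats that fat tissue releases, rose from 9.91, 7.14 and 7.48 CPM to 33.5, 30.8 and 35.3 CPM (2.02 ± 0.19, adjusted p = 2.51e-07). Ntrk2, the receptor for the growth factor BDNF, had 6.701, 7.82 and 5.52 CPM and 29.2, 23.9 and 26.7 CPM (1.99 ± 0.28). The 20 were taken only from called genes whose aKO and Cont libraries did not overlap, so the separation in these 3 genes is no separate result. Omd, which encodes the matrix proteoglycan osteomodulin (1.98), Angptl1, a secreted angiopoietin-like protein (2.00), Akr1c14, a steroid-metabolising reductase (1.92), and Gsc, a homeobox factor (1.87), rose by similar amounts. Among abundant genes, Gas6, the ligand of the TAM receptor kinases, gained the most CPM, from 1334, 1302 and 1472 to 3192, 2915 and 3294 (1.19 ± 0.061, adjusted p = 5.14e-16). The matrix protein gene Sned1 rose from 556, 603 and 563 CPM to 1544, 1344 and 1395 CPM (1.31 ± 0.08).

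F13a1, Enpp1 and Asic3 were among the 20 genes with the largest falls. F13a1, the A chain of coagulation factor XIII, which macrophages express, had 42.1, 46.3 and 39.3 CPM in Cont and 9.69, 9.67 and 8.18 CPM in aKO libraries (-2.22 ± 0.12, adjusted p = 6.37e-16). Enpp1, which makes pyrophosphate from ATP, fell from 39.02, 36.4 and 37.3 CPM to 7.52, 8.99 and 7.71 CPM (-2.21 ± 0.10, adjusted p = 6.36e-17). Asic3, an acid-sensing cation channel, had 27.9, 22.6 and 31.96 CPM and 5.12, 6.88 and 6.07 CPM (-2.18 ± 0.15). These 20 too were taken only from called genes whose aKO and Cont libraries did not overlap, so their separation follows from the choice. Cadm4, a cell adhesion molecule (-2.36), Prss35, a secreted serine protease family member (-2.81), and Serpinb2, an inhibitor of plasminogen activators (-2.17), fell too. Of abundant genes, Spp1, the cytokine and matrix protein osteopontin, fell from 1238, 1185 and 1016 CPM to 338, 318 and 338 CPM (-1.79 ± 0.12, adjusted p = 2.53e-09), Tnc, the matrix protein tenascin C, by 0.49 on the log2 scale, and Thbs1, thrombospondin 1, by 0.46.

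**Figure D2:**
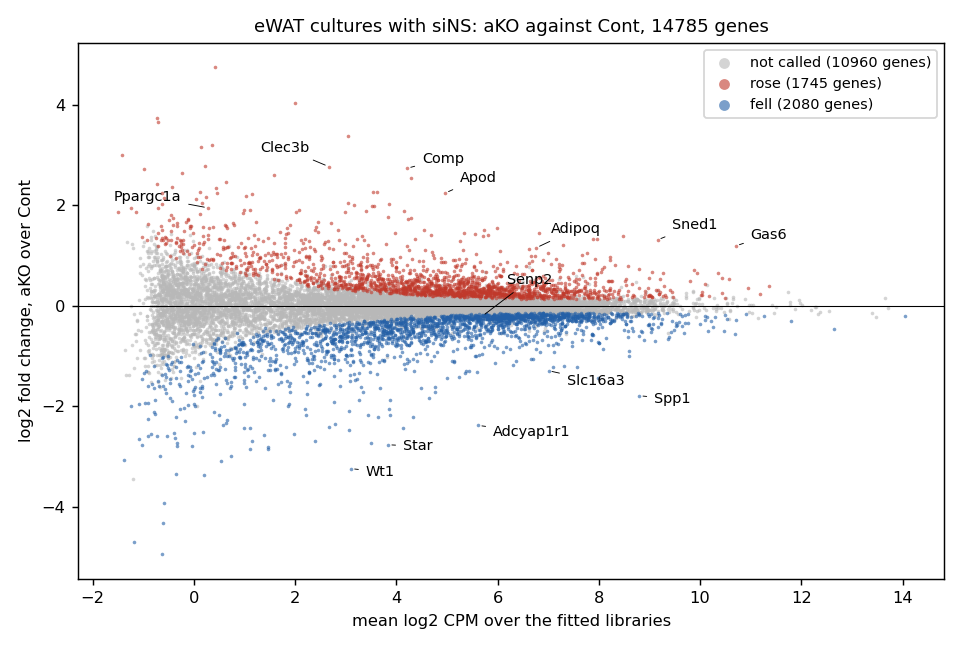
Each point is 1 of 14785 tested genes, with the mean log2 CPM on the horizontal axis and the log2 fold change of aKO over Cont on the vertical axis. The 1745 genes that rose are red, the 2080 that fell are blue, and Senp2 lies close to 0 while Wt1 and Star are among the lowest and Comp and Clec3b among the highest.

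Fat cell genes were higher in aKO cultures, with a wide spread. Of 24 markers of mature fat cells 11 rose and 0 fell, all 24 had a positive fold change, and their median was 0.62. Their summed level was 2947, 3891 and 3186 CPM in Cont and 4326, 4715 and 5162 CPM in aKO libraries, so Cont replicate 1 was lowest and aKO replicate 3 highest. Ephx2, an epoxide hydrolase of lipid signalling, had 19.96, 26.9 and 23.5 CPM and 47.8, 49.8 and 50.6 CPM (1.08 ± 0.15, adjusted p = 3.88e-05). Slc2a4, the insulin-responsive glucose transporter GLUT4, rose from 5.44, 7.62 and 7.26 CPM to 13.9, 16.9 and 19.8 CPM (1.32 ± 0.26, adjusted p = 0.000813). Fabp4, the fatty acid binding protein of fat cells, overlapped between the groups at 409, 567 and 434 CPM and 547, 666 and 734 CPM (0.46 ± 0.26, adjusted p = 0.219, and 0.0433 by limma voom). Without Cont replicate 1 the number that rose was 4, without aKO replicate 3 also 4, and without Cont replicate 3 it was 6.

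The transcription factors of fat cell formation moved in part. Of 34 such regulators 14 rose and 3 fell. Pparg, the factor that commits cells to the fat lineage, had 25.3, 28.6 and 24.8 CPM in Cont and 36.97, 39.01 and 42.6 CPM in aKO libraries (0.59 ± 0.14, adjusted p = 0.00246), with no overlap. Its partner Rxra rose from 107, 100.4 and 104 CPM to 143, 132 and 138 CPM (0.41 ± 0.06, adjusted p = 3.16e-06), and Klf15, a Krüppel-like factor of late differentiation, rose too (0.77 ± 0.15). Cebpa, which maintains the mature state, had 94.2, 121 and 114 CPM and 161, 163 and 188 CPM (0.64 ± 0.18, adjusted p = 0.0126); adjusted p was 0.0646 without Cont replicate 1 and 0.0578 without aKO replicate 3. Cebpd, which acts early with Cebpb, had a fold change of -0.15 ± 0.086 (adjusted p = 0.234). Sox9 and Id2, which are better known from undifferentiated cells, rose by 0.59 and 0.52, and Nr2f2, a nuclear receptor of precursor cells, fell by 0.43 on the log2 scale.

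Lipid handling genes rose in smaller numbers. Of 26 lipid storage and lipolysis genes 8 rose and 1 fell, and of 30 lipogenesis genes 8 rose and 2 fell. Elovl6, which lengthens fatty acids, had 39.2, 33.8 and 39.2 CPM in Cont and 62.4, 56.4 and 64.1 CPM in aKO libraries (0.71 ± 0.089, adjusted p = 5.62e-07). Lpin1, which makes diacylglycerol, rose from 66.6, 79.1 and 83.4 CPM to 97.7, 102 and 108 CPM (0.43 ± 0.071), and Mgll, the lipase that splits monoacylglycerol, by 0.58 ± 0.12. Scd1, the most abundant desaturase, overlapped at 3123, 4652 and 3880 CPM and 3993, 5044 and 5135 CPM (0.28 ± 0.24, adjusted p = 0.434). Without Cont replicate 1 the numbers that rose were 3 and 4, without aKO replicate 3 they were 5 and 4, and of the lipogenesis genes 5 rose without aKO replicate 2 and 4 with all 24 libraries. The 1 storage gene that fell was not called without Cont replicate 1 or 2 or aKO replicate 1 or 2, and of the 2 lipogenesis genes that fell 1 was called without Cont replicate 1 or 3 or aKO replicate 2 or 3.

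Insulin signalling and fat-derived hormones were mixed. Of 25 insulin and glucose genes 8 rose and 3 fell: Grb14, an adaptor that damps the insulin receptor, rose by 0.57 ± 0.088 and Irs1, the docking protein of that receptor, by 0.34 ± 0.067, while Slc2a1, the basal glucose transporter GLUT1, fell. Of 27 adipokine genes 8 rose and 9 fell. Ccdc80, a secreted matrix protein of fat cells, rose from 909, 875 and 962 CPM to 1278, 1207 and 1245 CPM (0.44 ± 0.057, adjusted p = 4.14e-07). Rarres2, which encodes chemerin, fell from 94.8, 106 and 78.2 CPM to 42.5, 48.9 and 48.4 CPM (-0.99 ± 0.13, adjusted p = 1.45e-05), and Apln, the peptide apelin, from 75.7, 98.4 and 65.5 CPM to 34.7, 38.9 and 37.4 CPM (-1.11 ± 0.14). Lep, the satiety hormone leptin, was low throughout at 0.628, 0.549 and 0.581 CPM and 1.01, 2.18 and 1.71 CPM (1.48 ± 0.47, adjusted p = 0.0186). Its adjusted p ran from 0.05 to 0.0999 when any one of Cont replicates 1, 2 and 3 or aKO replicates 2 and 3 was left out. Fgf21, a metabolic hormone, fell (-1.28 ± 0.34, adjusted p = 0.00432). Without Cont replicate 1 the number of adipokine genes that rose was 4, without Cont replicate 3 or aKO replicate 3 it was 5.

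The hallmarks of browning divided. Ucp1, the uncoupling protein of heat production, had 0 counts in all 6 libraries and 1 count in the 24 libraries, and Cidea, a lipid droplet protein of brown fat, had 1 count in the 6. Ppargc1a, a coactivator of mitochondrial genes, rose from 0.698, 0.4803 and 0.654 CPM to 2.48, 1.97 and 2.703 CPM (1.95 ± 0.29, adjusted p = 3.78e-06), a low level in every library. Of 35 listed brown and beige fat genes 25 were tested, of which 7 rose and 2 fell. Tbx1, a T-box factor used as a beige marker, was nearly silent in Cont at 0.209, 0.137 and 0.363 CPM and reached 2.402, 2.31 and 1.98 CPM in aKO libraries (3.19 ± 0.39, adjusted p = 1.31e-07). Pdk4, a kinase that holds back glucose oxidation, rose by 0.67 ± 0.096, Fabp3, a fatty acid binding protein of muscle and brown fat, by 0.996 ± 0.20, and Kcnk3, a potassium channel of brown fat cells, by 1.03 ± 0.22. Prdm16, which drives the brown programme, had 8.03, 7.82 and 8.13 CPM and 6.74, 5.58 and 7.19 CPM (-0.30 ± 0.13, adjusted p = 0.0826, and 0.0206 by limma voom at -0.38), with every aKO library below the Cont libraries. Dio2, which activates thyroid hormone, overlapped (-0.22 ± 0.34, adjusted p = 0.686), and Ppargc1b, a relative of Ppargc1a, did not pass the test (0.32 ± 0.17, adjusted p = 0.176).

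**Figure D3:**
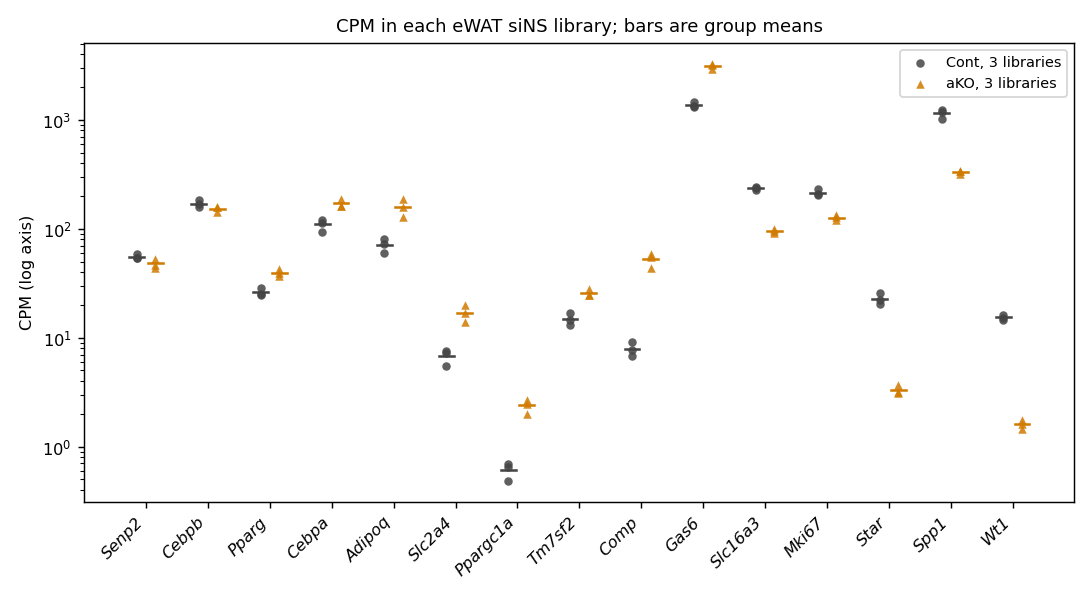
CPM of 15 genes in each of the 6 libraries, on a log axis. Circles are the 3 Cont and triangles the 3 aKO libraries, and bars are the group means. Senp2 and Cebpb lie close together in both groups, while Ppargc1a, Comp and Gas6 are higher and Slc16a3, Star, Spp1 and Wt1 lower in every aKO library.

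Nuclear genes of the respiratory chain were slightly higher in aKO cultures, with a median of 0.24 for complex I and 0.22 for complexes II to V. The 13 genes of the mitochondrial genome had a median of 0.19, and 12 had a positive fold change. Of these 13, 0 passed the test in the same fit, which does not show a smaller change than in the nuclear genes. Of 35 complex I genes 19 rose and 0 fell, and of 39 genes of complexes II to V 23 rose and 0 fell. Uqcrh, the hinge subunit of complex III, had 77.9, 78.6 and 69.1 CPM in Cont and 92.6, 94.4 and 108 CPM in aKO libraries (0.39 ± 0.068, adjusted p = 4.77e-05). Uqcr11, its smallest subunit, rose from 39.1, 41.2 and 32.9 CPM to 44.7, 53.8 and 67.3 CPM (0.55 ± 0.10), and Ndufb10 of complex I from 44.9, 46.7 and 42.7 CPM to 51.3, 53.5 and 65.7 CPM (0.35 ± 0.075). In each of these genes aKO replicate 3 was the highest library. Of the 13 mitochondrially encoded genes 3 rose and 1 fell with the 6 compared libraries alone, and 1 rose with the 12 eWAT libraries or without a low-count filter. One of the 13, mt-Co1, a core subunit of complex IV, had 2998, 3133 and 3178 CPM and 2943, 3438 and 3374 CPM (0.07 ± 0.17, adjusted p = 0.821). Of 29 fatty acid oxidation genes 15 rose and 1 fell (0 without Cont replicate 3 or aKO replicate 1), among them Etfb, which passes electrons from fatty acids to the chain (4.19, 5.01 and 3.49 CPM and 7.75, 7.01 and 7.38 CPM, 0.80 ± 0.16), and Hadh, which oxidises short-chain intermediates (0.29 ± 0.064). Of 24 genes of the citric acid cycle 10 rose and 1 fell.

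These counts turned on aKO replicate 3. Without it 6 complex I genes, 12 genes of complexes II to V and 5 fatty acid oxidation genes rose. Complex I had 11 without Cont replicate 3, fatty acid oxidation had 6 without Cont replicate 1, and with all 24 libraries the numbers were 10 and 8 for the 2 respiratory lists. In a test against a fold of 1.2, which is stricter by construction, they were 0 and 1. With siNS in the libraries labelled iWAT the medians of the 2 respiratory lists were 0.074 and 0.14, beside 0.24 and 0.22 in eWAT. The eWAT fold changes also ran with transcript length. Among other protein-coding genes the median was 0.13 for the 226 with at most 1000 bases of exon. It was 0.086 for the 1277 with over 1000 and up to 2000 bases, and -0.06 for the 2423 with over 8000 bases. The 74 respiratory genes had a median exon length of 1778.5 bases. Ribosomal protein genes, which are short too, summed to 20650, 20960 and 19180 CPM in Cont and 20110, 21050 and 23290 CPM in aKO libraries. Of 50 such genes 5 rose (10%, against 11.8% of all tested genes) and 0 fell. The number that rose was 2 without Cont replicate 3 or aKO replicate 3, 9 without aKO replicate 1 and 0 with all 24 libraries. Their part in the respiratory result was not tested.

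Cholesterol synthesis rose along its length. Of 26 tested genes 20 rose and 0 fell, with a median of 0.38, and the number was 18 to 21 without any single library. Mvk, mevalonate kinase, had 36.1, 33.1 and 34.9 CPM in Cont and 51.5, 50.6 and 54.7 CPM in aKO libraries (0.59 ± 0.068, adjusted p = 4.77e-08). Tm7sf2, a sterol reductase of the late pathway, rose from 14.4, 13.04 and 16.7 CPM to 24.6, 24.6 and 27.8 CPM (0.81 ± 0.095, adjusted p = 8.23e-08). Mvd, which decarboxylates mevalonate, rose by 0.65 ± 0.088, Sqle, squalene epoxidase, by 0.39 ± 0.058, and Hmgcs1, which forms the first committed precursor, by 0.27 ± 0.063. The export and oxysterol list held 4 genes that rose and 5 that fell of 19, of which 2 rose without Cont replicate 1, aKO replicate 1 or aKO replicate 3. The number that fell was 3 without Cont replicate 1 or 2 or aKO replicate 3, and with all 24 libraries. Star, which brings cholesterol into mitochondria for steroid synthesis, fell from 20.4, 25.9 and 22.1 CPM to 3.100, 3.200 and 3.69 CPM (-2.77 ± 0.13, adjusted p = 7.43e-17). Ch25h, which makes 25-hydroxycholesterol, a brake on sterol synthesis, fell from 41.04, 35.4 and 31.4 CPM to 7.52, 8.17 and 8.31 CPM (-2.17 ± 0.11, adjusted p = 5.14e-16). Cyp11a1, the enzyme that cleaves the side chain of cholesterol, was low at 0.558, 1.24 and 1.02 CPM and fell to 0.233, 0.136 and 0.0659 CPM (-2.66 ± 0.59). Of 19 steroid and glucocorticoid genes 5 rose and 4 fell, with the glucocorticoid-induced Tsc22d3 up by 0.59 ± 0.077.

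Most genes of glycolysis and most targets of hypoxia fell. Of 21 glycolysis genes 17 fell and 2 rose (1 with all 24 libraries), with a median of -0.39, and of 19 hypoxia targets 14 fell and 1 rose. The promoters of 4 glycolysis genes that fell are shown with the core of the hypoxia response element, ACGTG on either strand, in capitals. Only promoters that hold these letters were chosen. They are the 250 bases before the start of each gene in RefSeq (GRCm38.p6), 5′ to 3′ on the gene's strand. Slc16a3 lies at chr11:120948817-120949066 on the plus strand, Slc2a1 at chr4:119108495-119108744 on the plus strand, Pgk1 at chrX:106186850-106187099 on the plus strand and Hk2 at chr6:82774455-82774704 on the minus strand.
Slc16a3: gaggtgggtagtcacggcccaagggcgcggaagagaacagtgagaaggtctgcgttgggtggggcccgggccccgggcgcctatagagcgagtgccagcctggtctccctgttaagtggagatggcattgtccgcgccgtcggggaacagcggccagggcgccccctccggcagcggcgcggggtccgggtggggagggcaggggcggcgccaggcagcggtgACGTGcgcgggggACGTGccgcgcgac
Slc2a1: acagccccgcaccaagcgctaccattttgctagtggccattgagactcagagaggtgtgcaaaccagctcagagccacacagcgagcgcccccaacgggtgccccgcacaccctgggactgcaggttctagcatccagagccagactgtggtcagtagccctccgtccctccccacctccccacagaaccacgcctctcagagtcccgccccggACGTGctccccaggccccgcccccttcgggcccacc
Pgk1: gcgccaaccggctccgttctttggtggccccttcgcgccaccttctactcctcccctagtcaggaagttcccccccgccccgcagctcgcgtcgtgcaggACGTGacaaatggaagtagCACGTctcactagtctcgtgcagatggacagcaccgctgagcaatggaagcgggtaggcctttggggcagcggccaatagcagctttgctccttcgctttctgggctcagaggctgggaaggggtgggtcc
Hk2: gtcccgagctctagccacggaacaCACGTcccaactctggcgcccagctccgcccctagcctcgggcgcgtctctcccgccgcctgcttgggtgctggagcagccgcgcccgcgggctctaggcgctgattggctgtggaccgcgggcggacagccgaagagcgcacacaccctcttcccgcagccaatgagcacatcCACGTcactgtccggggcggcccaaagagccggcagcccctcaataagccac
The letters ACGTG stood in 14 of 33 windows of the 21 glycolysis genes with a match in the table (42.4%), in 21% of the windows of all tested genes and in 16.6% of all windows. They stood in 21.5% of the windows of all genes that fell and in 21.7% of those of all genes that rose. A match is a description of the sequence and not a bound site.

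The gene of the first sequence, Slc16a3, exports lactate and had 235, 242 and 228 CPM in Cont and 91.99, 100.2 and 95.3 CPM in aKO libraries (-1.29 ± 0.059, adjusted p = 6.36e-17). Slc2a1 fell from 210.3, 214 and 220.1 CPM to 126, 132 and 128 CPM (-0.74 ± 0.059, adjusted p = 2.1e-11). Pgk1, which yields ATP in the lower pathway, had 542, 568 and 502 CPM and 334, 355 and 356 CPM (-0.62 ± 0.056, adjusted p = 3.22e-10). Hk2, the first kinase of glycolysis, had 129, 142 and 143 CPM and 93.8, 88.2 and 91.4 CPM (-0.60 ± 0.069). All 4 genes kept their groups apart. They were chosen by their small p in this comparison, so this separation is no separate result. Eno1, enolase, fell from 1453, 1465 and 1461 CPM to 1025, 1029 and 1058 CPM (-0.49 ± 0.052). Of the other hypoxia targets, Vegfa, the main signal for vessel growth, fell from 280, 297 and 270.5 CPM to 178, 189 and 163 CPM (-0.68 ± 0.062, adjusted p = 4.94e-10). Egln3, an oxygen sensor that is itself induced by hypoxia, had a log2 fold change of -1.40 ± 0.16, P4ha1, which hydroxylates collagen, fell by 0.52 ± 0.046, and Pdk1, which diverts pyruvate from mitochondria, by 0.61 ± 0.076. Summed over the glycolysis list the level was 10610, 10920 and 10520 CPM in Cont and 8050, 8213 and 8465 CPM in aKO libraries.

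Genes of cell division were lower in aKO cultures. Of 44 mitosis genes 42 fell and 0 rose, with a median of -0.6, and of 45 DNA replication genes 29 fell and 0 rose. The summed level of the mitosis genes was 1794, 1606 and 1620 CPM in Cont and 1108, 1124 and 1062 CPM in aKO libraries. The promoters of 4 mitosis genes that fell, each holding both motifs, are shown with the cell cycle homology region TTTGAA and the CCAAT box, each on either strand, in capitals. Both motifs are known from genes that peak at cell division. The windows lie at chr7:135716380-135716629 (Mki67, minus strand), chr11:99024190-99024439 (Top2a, minus strand), chr19:37376132-37376381 (Kif11, plus strand) and chr6:125191587-125191836 (Ncapd2, minus strand), from RefSeq in GRCm38.p6.
Mki67: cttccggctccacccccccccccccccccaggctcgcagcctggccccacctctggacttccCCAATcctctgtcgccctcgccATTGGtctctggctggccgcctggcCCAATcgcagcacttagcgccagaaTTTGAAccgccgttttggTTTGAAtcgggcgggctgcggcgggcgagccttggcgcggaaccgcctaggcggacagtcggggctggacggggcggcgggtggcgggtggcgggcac
Top2a: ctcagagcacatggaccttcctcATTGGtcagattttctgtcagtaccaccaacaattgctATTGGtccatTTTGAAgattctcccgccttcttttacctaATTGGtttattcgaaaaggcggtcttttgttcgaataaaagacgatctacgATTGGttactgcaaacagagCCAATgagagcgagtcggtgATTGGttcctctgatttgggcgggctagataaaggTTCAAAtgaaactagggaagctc
Kif11: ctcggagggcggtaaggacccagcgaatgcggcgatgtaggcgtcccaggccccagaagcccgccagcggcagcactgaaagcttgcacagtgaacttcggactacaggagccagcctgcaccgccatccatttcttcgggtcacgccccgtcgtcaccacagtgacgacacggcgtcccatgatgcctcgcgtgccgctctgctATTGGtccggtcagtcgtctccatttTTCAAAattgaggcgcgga
Ncapd2: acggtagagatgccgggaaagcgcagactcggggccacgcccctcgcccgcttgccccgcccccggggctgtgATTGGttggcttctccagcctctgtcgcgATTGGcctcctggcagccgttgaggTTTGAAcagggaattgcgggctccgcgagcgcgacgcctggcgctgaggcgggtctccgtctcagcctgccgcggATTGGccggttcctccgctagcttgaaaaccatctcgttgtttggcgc
TTTGAA stood in 16 of 40 windows of the mitosis genes (40%), in 10.8% of the windows of tested genes and in 16% of all windows. CCAAT stood in 31 of the 40 (77.5%), in 34.9% of the windows of tested genes and in 33.8% of all windows. In the windows of all genes that fell and of all that rose, TTTGAA stood in 12.1% and 10.1% and CCAAT in 35.8% and 35.4%.

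Mki67, the proliferation marker Ki-67, had 229.8, 205 and 207 CPM in Cont and 133, 128 and 119.9 CPM in aKO libraries (-0.75 ± 0.07, adjusted p = 7.77e-10). Top2a, the topoisomerase that untangles chromosomes, fell from 148, 132 and 133 CPM to 89.4, 84.6 and 79.8 CPM (-0.71 ± 0.07), and Kif11, the motor that builds the bipolar spindle, from 37.9, 30.5 and 30.8 CPM to 17.8, 21.9 and 18.8 CPM (-0.76 ± 0.095). Ncapd2, a condensin subunit, fell by 0.53 ± 0.07. In these 4 genes the highest aKO library was below the lowest Cont library. They were chosen by their small p in this comparison, so this separation is no separate result. Of the replication genes, Mcm3, part of the replicative helicase, fell from 57.8, 49.7 and 47.9 CPM to 32.4, 33.3 and 33.7 CPM (-0.64 ± 0.085, adjusted p = 5.36e-07), Cdc6, which loads it, by 0.98 ± 0.15, and Uhrf1, which keeps DNA methylation through replication, by 0.53 ± 0.077. Among 20 genes that hold back the cell cycle 6 rose and 3 fell. Gas1, a growth arrest gene, rose from 309, 315 and 336 CPM to 616, 594 and 672 CPM (0.97 ± 0.077, adjusted p = 1.4e-10), Cdkn2b, which encodes p15, by 0.48 ± 0.077, and Cdkn1c, which encodes p57, from 7.05, 6.31 and 7.26 CPM to 11.8, 11.1 and 10.8 CPM (0.71 ± 0.12). Cdkn1a, which encodes p21, overlapped (0.10 ± 0.055, adjusted p = 0.189, and 0.0389 by limma voom).

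**Figure D4:**
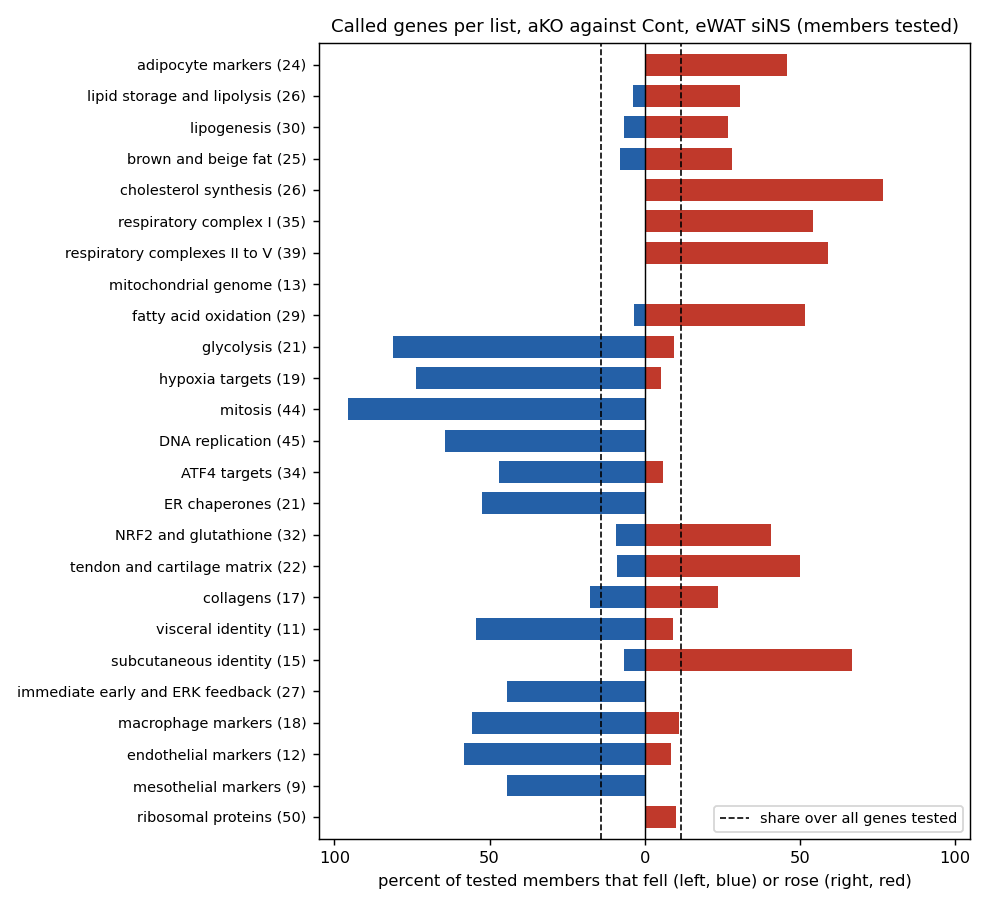
Share of the tested members of 25 gene lists that rose (red, to the right) or fell (blue, to the left), in percent, with the number tested in parentheses. Dashed lines are the shares over all genes, 11.8% and 14.1%. Mitosis, glycolysis and hypoxia targets reach farthest to the left and cholesterol synthesis and subcutaneous identity farthest to the right, and no gene of the mitochondrial genome is counted in the fit shown.

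Stress programmes were lower except for glutathione enzymes. Of 34 targets of ATF4, the factor of amino acid and integrated stress, 16 fell and 2 rose, of which 0 rose without Cont replicate 1 and 1 without Cont replicate 3 or aKO replicate 2 or 3. Cth, which makes cysteine, had 12.8, 13.4 and 13.5 CPM in Cont and 6.59, 7.35 and 6.33 CPM in aKO libraries (-0.97 ± 0.11, adjusted p = 6.87e-08), Psat1, of serine synthesis, fell by 0.29 ± 0.053, and Stc2, a secreted stress glycoprotein, by 0.52 ± 0.11. Atf4 itself did not pass the test (-0.11 ± 0.053, adjusted p = 0.13). Of 21 chaperones and sensors of the endoplasmic reticulum (ER) 11 fell and 0 rose, in small steps such as -0.28 ± 0.049 for Hspa5, the main ER chaperone, and -0.26 ± 0.047 for P4hb, protein disulfide isomerase, and with all 24 libraries the number was 4. Of 32 genes of the NRF2 and glutathione list 13 rose and 3 fell, and with all 24 libraries 8 rose and 1 fell. Gstt1, a glutathione transferase, rose from 7.05, 7.14 and 6.68 CPM to 15.1, 16.8 and 19.6 CPM (1.31 ± 0.13, adjusted p = 1.66e-09), and Gstm1, of another class, from 50.1, 56.1 and 54.98 CPM to 75.5, 82.2 and 85.8 CPM (0.60 ± 0.088). Gpx3, the secreted glutathione peroxidase, gained from 1255, 1378 and 1397 CPM to 2041, 2112 and 2207 CPM (0.66 ± 0.079). The glutathione transferases are a family of close copies, so reads may be split between members.

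Matrix genes changed in both directions, and those of tendon and cartilage mostly upward. Of 22 tendon and cartilage matrix genes 11 rose and 2 fell. Prelp, a leucine-rich proteoglycan that anchors basement membranes, rose from 160, 167 and 145 CPM to 373, 394 and 426 CPM (1.33 ± 0.10, adjusted p = 4.53e-09). Fmod, fibromodulin, which controls collagen fibril width, had 70.4, 52.4 and 46.1 CPM and 165, 133 and 167 CPM (1.46 ± 0.14, adjusted p = 5.27e-07), and Comp, a pentameric cartilage protein, rose by 2.74 ± 0.14. The collagens divided, with 4 of 17 up (2 with all 24 libraries) and 3 down (5 by limma voom): Col6a1 rose by 0.53 ± 0.10, and Col11a1 and Col5a2, which set the width of fibrils, fell by 0.52 and 0.30 on the log2 scale. Of 23 basement membrane genes 5 fell and 2 rose, and the number that rose was 1 without Cont replicate 2 or aKO replicate 1 and 4 without Cont replicate 3. Among those that fell was Lama5, a laminin chain, at -0.74 ± 0.14. Of 28 matrix proteases and inhibitors 8 rose and 6 fell. Timp2, an inhibitor of metalloproteinases, rose from 873, 862 and 902 CPM to 1403, 1353 and 1401 CPM (0.66 ± 0.048, adjusted p = 3.03e-12), whereas its relative Timp1 fell from 641, 643 and 650.4 CPM to 417, 465 and 489.9 CPM (-0.50 ± 0.062, adjusted p = 2.18e-07). Adamts4 and Adamts5, which cleave proteoglycans, fell by 0.54 and 0.69 on the log2 scale.

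Signalling genes changed in both directions, ligand by ligand. Of 32 Wnt genes 11 rose and 8 fell. Sfrp2, a secreted Wnt modulator of fat precursors, rose from 319, 352 and 315 CPM to 874, 817 and 891 CPM (1.39 ± 0.15, adjusted p = 2.74e-06), as did the receptor Fzd4 (0.89 ± 0.10) and the secreted Dkk3 (0.71 ± 0.064). The ligand Wnt4 fell from 24.4, 22.9 and 23.1 CPM to 12.6, 9.600 and 11.1 CPM (-1.08 ± 0.12, adjusted p = 4.92e-08). Of 37 genes of TGFβ and BMP signalling 10 rose and 17 fell. The ligand Gdf6 fell from 3.63, 4.803 and 3.85 CPM to 1.08, 0.817 and 1.25 CPM (-1.95 ± 0.23), the antagonists Fstl3 and Bmper fell by 0.85 and 0.74 on the log2 scale, and the inhibitor Smad6 and the BMP target Id3 rose by 0.73 and 0.57. Of 15 genes of the insulin-like growth factor system 5 rose and 4 fell: the binding protein gene Igfbp3 fell from 476, 555 and 505 CPM to 186, 202 and 178 CPM (-1.44 ± 0.19, adjusted p = 3.64e-05), and Igfbp5 rose from 117, 94.5 and 104 CPM to 226, 182 and 191 CPM (0.93 ± 0.17).

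Growth factor genes divided, and early response genes were lower. Of 25 FGF and EGF genes 8 rose and 10 fell, and 5 rose without Cont replicate 1 or with a stricter filter. Fgf2, a mitogen of fat precursors, fell from 170.1, 188 and 218 CPM to 94.9, 107 and 102 CPM (-0.92 ± 0.13, adjusted p = 5.01e-05) and the EGF receptor ligand Ereg from 3.84, 6.17 and 3.704 CPM to 1.24, 1.16 and 1.32 CPM (-1.88 ± 0.30). Fgfr2, a receptor, rose from 9.91, 8.44 and 10.7 CPM to 27.3, 22.8 and 29.3 CPM (1.45 ± 0.11, adjusted p = 3.73e-12). Of 27 immediate early genes and inhibitors of ERK signalling 12 fell and 0 rose. Dusp6, a phosphatase that reports and restrains ERK activity, had 28.8, 26.4 and 24.4 CPM and 10.8, 13.96 and 13.1 CPM (-1.07 ± 0.099, adjusted p = 5.33e-10), and Spry2, another inhibitor of this pathway, fell by 0.48 ± 0.075. Of 19 retinoic acid genes 7 rose and 9 fell. Aldh1a1, which makes retinoic acid, rose from 47.3, 50.6 and 48.4 CPM to 104, 102 and 104 CPM (1.08 ± 0.094, adjusted p = 3.2e-09), while Dhrs3, which turns retinal back to retinol, fell by 0.74 ± 0.067 and Rarb, a receptor and classical target, had a log2 fold change of -2.69 ± 0.30. Of 32 ion channels and receptors 3 rose and 10 fell, with Adra2a, an adrenergic receptor that restrains lipolysis, at 13.1, 13.8 and 16.6 CPM and 5.89, 4.42 and 6.46 CPM (-1.37 ± 0.17). Of 40 genes of axon guidance 11 rose and 10 fell, among them the semaphorin Sema7a (-1.62 ± 0.14).

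Markers of visceral fat were lower and markers of subcutaneous fat higher in aKO cultures. Of 11 visceral markers 6 fell and 1 rose, and of 15 subcutaneous markers 10 rose and 1 fell. The 1 visceral rise was lost without Cont replicate 1 or 2 or aKO replicate 1 or 2, with all 24 libraries, with the 6 compared libraries alone, by DESeq2 and with the replicate block, whereas 6 visceral markers fell in each of these fits. Tcf21, a visceral precursor factor, had 4.33, 4.32 and 3.92 CPM in Cont and 0.6200, 0.953 and 0.527 CPM in aKO libraries (-2.56 ± 0.25, adjusted p = 1.64e-09), and Wt1 fell from 14.6, 15.2 and 16.3 CPM to 1.63, 1.77 and 1.45 CPM (-3.24 ± 0.15, adjusted p = 6.36e-17). Thbd, thrombomodulin, fell by 1.71 ± 0.11 and Hoxa5, a homeobox factor of anterior identity, by 1.10 ± 0.13. Irx1 rose from 23.4, 23.3 and 27.8 CPM to 43.4, 44.1 and 48.6 CPM (0.87 ± 0.088, adjusted p = 3.11e-09), its relative Irx5 by 0.91 ± 0.11 and Hoxc10, a marker of inguinal fat, by 0.51 ± 0.083. Shox2, a subcutaneous marker too, was the 1 that fell (-0.51 ± 0.06), and Tbx15 overlapped (0.10 ± 0.063, adjusted p = 0.275 and 0.0406 without Cont replicate 3). In the libraries labelled iWAT the same contrast gave -3.31 ± 0.19 for Wt1 and -2.69 ± 0.32 for Tcf21. Which animals each culture came from is not given, so genotype and the origin of the cultures cannot be told apart.

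Markers of other cell types moved with the genotype. Of 18 macrophage markers 10 fell and 2 rose (1 when any one Cont library or aKO replicate 1 or 3 was left out), and their sum was 3159, 2958 and 2253 CPM in Cont and 1873, 1865 and 1793 CPM in aKO libraries. Cd163, a scavenger receptor, had 9.91, 10.4 and 9.01 CPM and 2.48, 4.29 and 3.43 CPM (-1.51 ± 0.18, adjusted p = 6.26e-08) and C1qb, of complement C1q, 218, 209 and 149.8 CPM and 90.8, 90.8 and 86.03 CPM (-1.11 ± 0.19), whereas Lyz2, lysozyme, did not pass the test (-0.53 ± 0.27, adjusted p = 0.168; 0.00122 with the 6 compared libraries fitted alone and 0.00755 by limma voom). Of the markers of T and NK cells, Cd3e and Nkg7 had 0 counts in all 6 libraries. Of 12 endothelial markers 7 fell and 1 rose, with sums of 175.3, 162.3 and 184.5 CPM against 119.2, 104.4 and 106.5 CPM. Cdh5, the cadherin of vessels, fell from 5.09, 6.72 and 5.38 CPM to 2.02, 1.91 and 1.32 CPM (-1.72 ± 0.22), and Tek, the angiopoietin receptor, was the 1 that rose (0.85 ± 0.12). Of 9 mesothelial markers 4 fell and 0 rose, with sums of 33.99, 33.07 and 35.59 CPM against 13.48, 13.21 and 15.1 CPM, of which Wt1 made up the largest share in Cont. The defining mesothelial genes Upk3b and Lrrn4 were near 0, at 0.628, 0.549 and 0.145 CPM and 0.489, 0.618 and 0.0726 CPM in Cont, and Msln, Krt8, Krt18, Muc16 and Bnc1 were too low to test. Of 14 mural cell markers 2 rose and 5 fell (9 with the 6 compared libraries alone), with Des, the filament desmin, at -2.06 ± 0.15. Among 27 markers of fat precursors 9 rose and 2 fell, and 1 fell without Cont replicate 1, Cont replicate 3 or aKO replicate 1, with all 24 or the 12 eWAT libraries and with the replicate block. Ly6a (Sca-1) rose from 359.9, 329.7 and 358 CPM to 583, 601 and 642 CPM (0.80 ± 0.062, adjusted p = 1e-11) and Pdgfra, a receptor of precursor cells, by 0.32 ± 0.066, while Dpp4, of early progenitors, fell by 2.44 ± 0.37. The part of these cells in the other results was not tested.

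Inflammatory genes were lower more often than higher. Of 32 inflammation genes 12 fell and 3 rose (6 with the 6 compared libraries alone), and Il6, the cytokine interleukin 6, had 8.86, 7.55 and 7.48 CPM in Cont and 3.18, 3.34 and 2.97 CPM in aKO libraries (-1.33 ± 0.16, adjusted p = 8.23e-08). Vcam1, which holds leukocytes, rose by 0.58 ± 0.059, and Il1r1, the receptor of interleukin 1, by 0.36 ± 0.055. Of 22 chemokine genes 5 rose and 7 fell, and without Cont replicate 1 the number that fell was 4. Cxcl12, which retains stem and immune cells, rose from 312, 304 and 325 CPM to 421, 476 and 469 CPM (0.54 ± 0.064). Of 23 complement genes 6 rose and 9 fell: C7, of the membrane attack complex, fell from 26.2, 30.5 and 24.2 CPM to 9.14, 8.17 and 8.900 CPM (-1.63 ± 0.13, adjusted p = 1.28e-11) and C4b rose from 580.2, 575 and 578 CPM to 1012, 908 and 979 CPM (0.74 ± 0.14). Of 32 interferon response genes 4 rose (12.5%, against 11.8% of all tested genes) and 0 fell, with Ifit3 at 0.80 ± 0.19. The number that rose was 7 without aKO replicate 2, by limma voom or with the replicate block, and 1 fell without Cont replicate 2.

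Whether the effect of aKO differed between the libraries labelled eWAT and iWAT was tested as a difference of differences, with 2 iWAT aKO siNS libraries. No gene differed by edgeR (0 of 14785, 0%), with 572 at an unadjusted p below 0.05, none by DESeq2 or limma voom, and 2 without a filter on low counts. A difference that misses the threshold does not show that the effects were equal. The effect of aKO on Ppargc1a was 1.95 ± 0.29 in eWAT and 2.65 ± 0.35 in iWAT, on Adipoq, the fat cell hormone adiponectin, 1.16 ± 0.26 and 1.02 ± 0.29, and on Mki67 -0.75 ± 0.07 and -0.80 ± 0.081. Over all tested genes the 2 effects, which share no library, had a Pearson r of 0.757, given as a description across genes.

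The effect of aKO did differ between the siRNAs. In eWAT Cont cultures Cebpb had 57.6, 42.6 and 51.8 CPM with siCEBPb, against 159, 168 and 184 CPM with siNS, and in aKO cultures 20.3, 32.3 and 29.6 CPM against 142, 158 and 158 CPM. The fall with siCEBPb was -1.75 ± 0.16 in Cont and -2.48 ± 0.18 in aKO cultures on the log2 scale (edgeR adjusted p = 3.47e-07 and 6.43e-09). For Cebpb the difference of the aKO effects, siNS minus siCEBPb, did not pass the test in the main fit. It passed by limma voom (0.878, adjusted p = 0.00115) and in edgeR with library totals alone (0.772, adjusted p = 0.0476). The difference between the aKO effects passed the test in 1690 genes (11.4%), more positive with siNS in 861 and more negative in 829. When libraries were scaled by their totals alone this split was 1103 and 646, and with all 24 libraries 938 genes passed, and 1117 did without aKO replicate 3. Over all tested genes the 2 effects, which share no library, had a Pearson r of 0.479, and of the 3825 genes that changed with siNS 71% had the same sign with siCEBPb.

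The 6 genes with the smallest p for this difference all rose with siNS. The difference contains the siNS effect, so their change with siNS is no separate result. Ndnf, a secreted neurotrophic and vascular factor, had 8.65, 8.37 and 8.35 CPM in Cont and 15.5, 16.1 and 15.5 CPM in aKO cultures with siNS, and 6.98, 7.32 and 6.91 CPM and 2.38, 2.27 and 2.78 CPM with siCEBPb. Its effect was 0.89 ± 0.11 with siNS and -1.51 ± 0.14 with siCEBPb, a difference of 2.40 ± 0.18 (edgeR adjusted p = 1.43e-10). Vegfd, a growth factor of lymphatic vessels, had 293, 282 and 308 CPM and 531, 495 and 529.7 CPM with siNS and 261, 256 and 277 CPM and 225, 224 and 253 CPM with siCEBPb, so that its rise was present with siNS and its sign was negative with siCEBPb (difference 1.00 ± 0.079, adjusted p = 3.72e-10). Emb, embigin, a partner of lactate transporters, had 322, 322 and 342 CPM and 588, 615 and 646 CPM with siNS and 141, 143 and 141 CPM and 150, 140 and 163 CPM with siCEBPb (difference 0.81 ± 0.081). The differences for Slc7a2, a transporter of cationic amino acids, for Gas1 and for Ifi205, an interferon-inducible gene with close relatives, were 1.13 ± 0.11, 1.24 ± 0.11 and 1.17 ± 0.11. Ppargc1a had 0.731, 0.399 and 0.604 CPM in Cont and 0.462, 0.806 and 0.765 CPM in aKO cultures with siCEBPb, and its difference was 1.74 ± 0.48 (adjusted p = 0.0174). For Wt1 the effect was -3.24 ± 0.15 with siNS and -3.43 ± 0.15 with siCEBPb, and the difference did not pass the test (0.18 ± 0.25, adjusted p = 0.709).

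**Figure D5:**
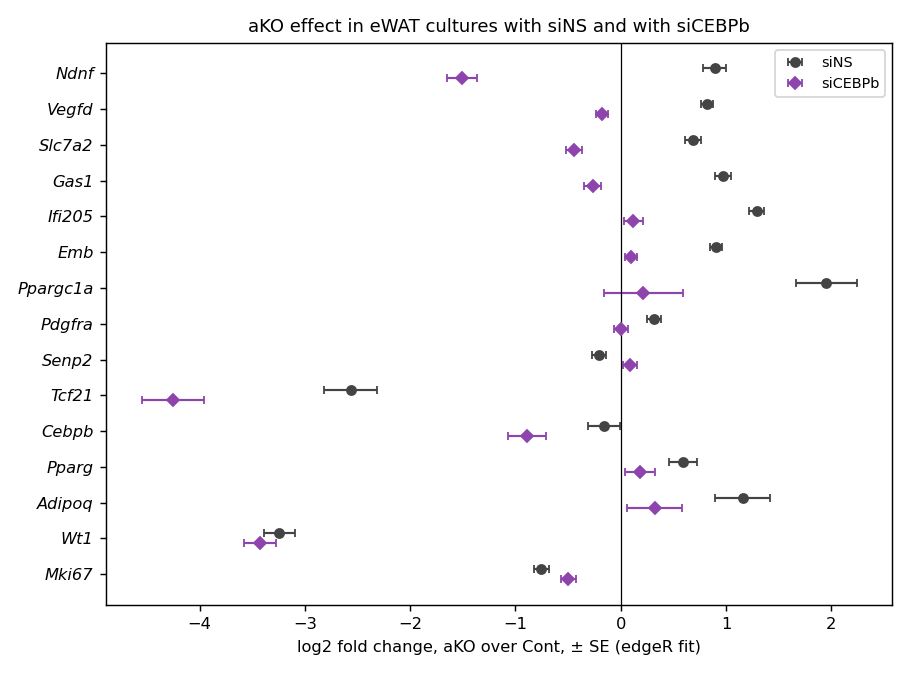
Log2 fold change of aKO over Cont with siNS (circles) and with siCEBPb (diamonds) for 15 genes in eWAT cultures, with bars for the SE of the edgeR fit. Ndnf, Vegfd, Slc7a2 and Gas1 are above 0 with siNS and below 0 with siCEBPb, and Wt1 lies far below 0 with either siRNA.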

How the data were processed

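Poly(A) RNA of 24 mouse samples was sequenced. Reads were trimmed with cutadapt 2.7, aligned with TopHat2 2.1.1 to GRCm38 and counted with HTSeq, and edgeR was used, per the submitters' processing notes; the strand setting was not given in the sources used here, which leaves overlapping genes of opposite strands uncertain. The authors deposited whole-number counts for 53465 genes and 5 counter lines, which held 27.5% to 35% of the listed reads of the 6 libraries and stayed out of every step. The authors also deposited a signal per gene for each sample, which was not used.

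Counts were fitted in R 4.3.3 with edgeR 4.0.16 (quasi-likelihood, robust, TMM factors 0.966 to 0.998 in the 6 libraries, 8 group means) on 23 libraries. The iWAT aKO siNS replicate 2 was left out for its 603585 gene counts. A filter at a minimum count of 10 (filterByExpr) left 14785 genes, and p-values were adjusted by Benjamini and Hochberg at 0.05. The script was tested on simulated data. Same-numbered Cont and aKO libraries had deviations with r of 0.139, 0.0875 and -0.158, and unlike-numbered ones from -0.249 to 0.204. These few values cannot tell if the numbers mark pairs. The column headers group the conditions of a depot by this number. Numbers were not used as pairs in the main fit, and a fit with the replicate block is given below. Names came from GENCODE M21, and promoters from RefSeq (GRCm38.p6), where 27025 genes had 32851 windows. Alternatives used DESeq2 1.42.0 and limma 3.58.1 among others.

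The members and the 54 gene lists were chosen with earlier results of these data known. Text names 20 set genes and the 12 largest gains and losses of CPM among called genes. The 20 largest rises and falls are named from called genes at a mean log2 CPM of at least 1 whose groups did not overlap. It also names the 6 smallest p and 3 highest levels of each list, and the 6 smallest p of each difference. Irx2 and Ncapd2 lie outside this rule, and some genes it covers are not reported here. The comparison of Cont libraries between depots was added after seeing the data.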

Additional observations from a re-analysis of the deposited data

Results flagged for a closer look

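The effect of aKO in eWAT cultures differed between siNS and siCEBPb by the test of the difference itself (edgeR quasi-likelihood test, Benjamini-Hochberg adjustment) in 1690 genes. Differences are given on the log2 scale as the siNS effect minus the siCEBPb effect, with 3 libraries in each of the 4 groups. Senp2 differed by -0.30 ± 0.098 (adjusted p = 0.0441), with an effect of -0.21 ± 0.069 with siNS and 0.09 ± 0.069 with siCEBPb, where the libraries labelled aKO were not lower. Its adjusted p ran from 0.0522 to 0.138 when any of the 3 Cont libraries or aKO replicates 2 and 3 was left out, and was 0.0855 with all 24 libraries, 0.0778 with the 12 eWAT libraries and 0.0838 without TMM. Ppargc1a differed by 1.74 ± 0.48 (adjusted p = 0.0174). Tcf21 differed by 1.69 ± 0.48 (adjusted p = 0.0191, and 0.0978 without aKO replicate 2), being lower in aKO cultures with either siRNA and lower still with siCEBPb. Pdgfra differed by 0.31 ± 0.093 (adjusted p = 0.0262), and adjusted p was 0.0735 without Cont replicate 1, 0.0544 without Cont replicate 2, 0.0551 without aKO replicate 1 and 0.143 with all 24 libraries. Ndnf differed by 2.40 ± 0.18, Vegfd by 1.00 ± 0.079, Slc7a2 by 1.13 ± 0.11, Gas1 by 1.24 ± 0.11, Ifi205 by 1.17 ± 0.11 and Emb by 0.81 ± 0.081. In each of these last 6 genes the 3 aKO libraries with siNS lay above the 3 Cont libraries with siNS. Over all tested genes these libraries did not overlap, in either direction, in 39.5%. The 6 were chosen by the smallest p of a difference that contains this comparison, so their separation is no separate result.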

How the results depend on the processing

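No gene called between aKO and Cont changed sign under any of the settings tried. A test against a fold of 1.2 left 1367 changed genes (570 higher, 797 lower) and 406 genes for the difference between siRNAs, by construction fewer. With all 24 libraries that difference held 938 genes and the genotype comparison 3013, and without a low-count filter 2 genes differed between depots; the causes were not tested. Other scalings, filters, tools and subsets gave 3344 to 4533 changed genes. Leaving out each of the 6 libraries gave 2871 to 3526 changed genes, 1254 to 1652 higher, 1617 to 1874 lower, 0 for the depot difference and 1117 to 1684 for the siRNA difference. With the replicate block, taken only as a number shared within a depot, 3645 genes changed (1658 higher, 1987 lower), 0 differed between depots and 1574 between siRNAs. Over the 6 fits that each left out a library, the uncalled differences between siRNAs of Cebpd (-0.139 to 0.0767), Dio2 (-0.00448 to 0.417) and Prdm16 (-0.123 to 0.0614) changed sign. The Cont siNS libraries of the 2 depots differed in 1144 genes, 55 with the fold threshold, 530 with the replicate block and 178 with all 24 libraries, chosen after seeing the data. Depth limits low genes: Ucp1 had 0 counts in the 6 libraries, so its change was not detectable.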

Other observations

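Several gene families not described above held called members. Of 11 genes of the C/EBP and PAR-bZIP list 4 rose and 0 fell, among them the clock output genes Dbp, from 21.8, 20.6 and 24.3 CPM to 32.5, 32.3 and 34.9 CPM (0.58 ± 0.11, edgeR adjusted p = 0.000255), and Tef, from 66.9, 67.7 and 69.5 CPM to 92.6, 90.2 and 82.5 CPM (0.38 ± 0.068, adjusted p = 7.21e-05), and the number was 2 without Cont replicate 1 or aKO replicate 3. Of 28 Hox genes 7 rose (25%) and 4 fell (14.3%), against 11.8% and 14.1% of all tested genes. Hoxd8 had 16.96, 19.2 and 16.5 CPM in Cont and 10.7, 11.4 and 9.43 CPM in aKO libraries (-0.74 ± 0.12, edgeR adjusted p = 1.14e-05). Hoxa3 was at -0.78 ± 0.15. The number of Hox genes that rose was 4 without Cont replicate 1 or 2 or aKO replicate 2 or 3, and by DESeq2. Hoxc9 rose from 12.2, 10.8 and 12.3 CPM to 17.4, 15.7 and 15.9 CPM (0.47 ± 0.1), in the direction opposite to Hoxa5 (-1.10 ± 0.13).

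Of the axon guidance genes, the receptor Epha3 rose from 7.54, 8.44 and 8.35 CPM to 14.9, 16.5 and 14.8 CPM (0.92 ± 0.10, edgeR adjusted p = 1.65e-08), and the semaphorin Sema3g fell from 8.03, 7.07 and 6.68 CPM to 2.79, 2.93 and 3.23 CPM (-1.28 ± 0.18, adjusted p = 1.68e-06). Cxcl13, a chemokine that attracts B cells, was nearly silent in Cont at 0.489, 0.4803 and 0.145 CPM and had 2.71, 3.68 and 3.82 CPM in aKO libraries (3.16 ± 0.33, adjusted p = 5.71e-09), with 2.69 ± 0.39 in the libraries labelled iWAT. The ribosomal protein gene Rplp0, often used as a reference gene, rose from 738, 760.5 and 716 CPM to 995, 1027 and 1082 CPM (0.49 ± 0.055, adjusted p = 3.82e-08, and 0.079 with all 24 libraries).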
